A study of Mus musculus with 2 samples.

Results

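The subject is a set of 9 mouse genes that encode mechanically gated and transient receptor potential (TRP) cation channels: Piezo1, Piezo2, Tmem63b, Trpc1, Trpm7, Trpv1, Trpv2, Trpv4 and Trpa1. They are a list chosen by name, 9 of the 21887 protein-coding genes that were compared, and each was described by the H3K4me3 peaks lying over its gene model or within 1 kb of it. H3K4me3, histone H3 trimethylated on lysine 4, was profiled by chromatin immunoprecipitation and sequencing in neurons sorted as NOS1-positive from the small intestine of mice. There was 1 immunoprecipitate library and 1 input library, so no value has a replicate and no test between samples was possible. Genotype, strain, age, the number of animals and the way of sorting were not stated in the labels.

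H3K4me3 is laid down around the starts of genes that are transcribed or ready to be. A peak at a start is therefore read as a promoter mark, and it does not measure how much RNA is made. PIEZO and TMEM63 proteins form channels that open when the membrane is stretched. TRP channels are a large superfamily gated by heat, chemicals, osmotic change or signalling through phospholipase C, and several of them have been studied as stretch or irritant sensors in the gut wall. NOS1-positive enteric neurons are the inhibitory motor neurons and interneurons that release nitric oxide, and Trpv2 is known from work in mice as a stretch-responsive channel of such neurons.

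The promoters of 6 members are shown because they differ in CpG content, which is set beside the peaks further on. Each line holds the 250 bases before a RefSeq start (GRCm38.p6, the assembly of mm10), read 5′ to 3′ along the gene, with CpG dinucleotides in capitals.
Trpm7, chr2:126876262-126876511, minus strand: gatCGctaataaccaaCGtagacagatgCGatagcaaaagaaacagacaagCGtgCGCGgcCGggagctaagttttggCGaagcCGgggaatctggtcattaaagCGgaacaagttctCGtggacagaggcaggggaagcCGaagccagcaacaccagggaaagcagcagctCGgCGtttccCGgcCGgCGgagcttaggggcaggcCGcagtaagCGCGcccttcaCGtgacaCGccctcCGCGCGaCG
Trpc1, chr9:95750349-95750598, minus strand: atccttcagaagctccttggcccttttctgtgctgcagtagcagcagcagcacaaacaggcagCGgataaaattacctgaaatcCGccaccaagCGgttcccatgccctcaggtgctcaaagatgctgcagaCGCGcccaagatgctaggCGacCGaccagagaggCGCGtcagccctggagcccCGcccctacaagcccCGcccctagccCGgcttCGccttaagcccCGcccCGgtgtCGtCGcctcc
Piezo1, chr8:122551330-122551579, minus strand: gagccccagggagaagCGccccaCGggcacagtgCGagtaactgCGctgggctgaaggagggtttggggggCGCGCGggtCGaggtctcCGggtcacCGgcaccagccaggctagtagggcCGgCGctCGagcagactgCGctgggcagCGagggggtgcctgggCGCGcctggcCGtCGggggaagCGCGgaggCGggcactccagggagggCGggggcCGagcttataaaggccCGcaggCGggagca
Trpv4, chr5:114658422-114658671, minus strand: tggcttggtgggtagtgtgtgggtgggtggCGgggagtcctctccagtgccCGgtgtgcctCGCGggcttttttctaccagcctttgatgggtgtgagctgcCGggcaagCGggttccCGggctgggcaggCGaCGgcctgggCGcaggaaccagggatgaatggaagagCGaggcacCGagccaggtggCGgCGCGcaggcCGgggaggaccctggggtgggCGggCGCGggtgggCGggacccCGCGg
Trpv2 first start, chr11:62574236-62574485, plus strand: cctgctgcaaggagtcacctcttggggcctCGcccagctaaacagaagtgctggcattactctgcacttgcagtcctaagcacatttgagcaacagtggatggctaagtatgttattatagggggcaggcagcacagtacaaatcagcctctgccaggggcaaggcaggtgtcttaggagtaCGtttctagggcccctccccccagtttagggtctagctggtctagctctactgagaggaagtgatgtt
Trpv2 downstream start, chr11:62575377-62575626, plus strand: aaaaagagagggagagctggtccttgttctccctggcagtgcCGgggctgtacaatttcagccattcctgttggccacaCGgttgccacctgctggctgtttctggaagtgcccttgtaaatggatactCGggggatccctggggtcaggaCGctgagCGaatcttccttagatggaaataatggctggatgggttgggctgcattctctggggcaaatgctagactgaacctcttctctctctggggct
Trpv1, chr11:73233899-73234148, plus strand: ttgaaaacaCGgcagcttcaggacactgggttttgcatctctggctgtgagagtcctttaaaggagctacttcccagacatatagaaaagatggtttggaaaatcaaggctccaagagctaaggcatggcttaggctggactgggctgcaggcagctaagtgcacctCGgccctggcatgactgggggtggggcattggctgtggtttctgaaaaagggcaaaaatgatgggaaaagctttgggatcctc

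In the first 4 promoters the capitals are frequent, with 26 CpG dinucleotides at Trpm7, 17 at Trpc1, 26 at Piezo1 and 22 at Trpv4. They are sparse at Trpv1, with 2, at the first start of Trpv2, with 2, and at its downstream start, with 5. Tmem63b, not printed, had 31.

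Of the 9 genes, 7 carried a peak: Piezo1, Piezo2, Tmem63b, Trpc1, Trpm7, Trpv2 and Trpv4. Trpv1 and Trpa1 carried none. Across all protein-coding genes 67.0% carried a peak over the model with 1 kb to each side, so 7 of 9 (77.8%) is near the background. Longer models hold a peak more often: with genes divided into 10 groups by length, the share in the groups of the members was between 78.3% and 91.7%. The same 7 members had a peak within 1 kb of an end of the model, where 61.4% of all protein-coding genes had one. RefSeq starts were used for 7 members (not for Piezo2 and Trpa1), and 6 of these 7 had a peak within 1 kb of a start, against 63.0% of the protein-coding genes with a listed start. In 5 of the 7 a peak covered a start, against 55.9% of those genes. These shares hold for a mixture of sorted cells: fewer cells with a marked promoter and less mark in each cell cannot be told apart.

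In all, 18 peaks lay over the 7 genes. In each gene but Trpv4, 1 peak was at least 1500 bp wide and the other peaks were narrower. The 8 peaks under 300 bp had scores between 3.41 and 8.62. The score is the authors' own value for each peak, on a scale that is not given, and it is used here only to order peaks within this list, whose median score was 35.7 and whose highest was 703. Over the 7 genes the median width of the widest peak was 1781 bp and the median of the highest score was 111.4, beside 1515 bp and 153 over all 14665 protein-coding genes with a peak.

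**Figure D1:**
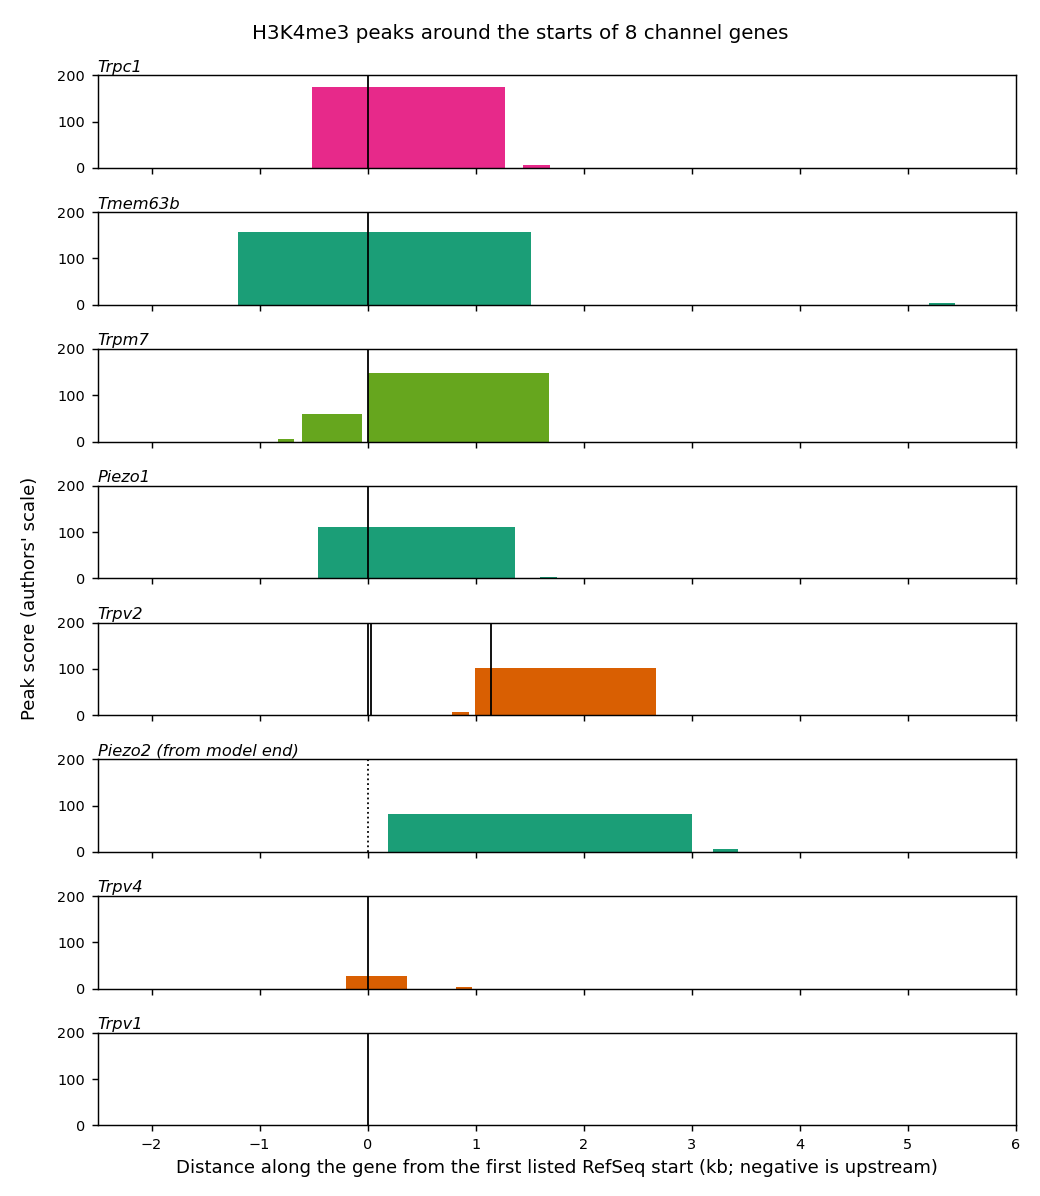
Peaks around the starts of 8 of the genes: the x axis is the distance along the gene from the first listed start in kb, the y axis the peak score, and each bar is 1 peak drawn to scale. Solid vertical lines are RefSeq starts (Trpv2 has 3), and for Piezo2 the dotted line is the upper-coordinate end of the model; the wide peaks of Trpc1, Tmem63b and Piezo1 straddle the start, that of Trpv2 lies over its downstream start, the start of Trpm7 lies in a gap between peaks, and Trpv1 has no peak.

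The PIEZO and TMEM63 genes carried the widest single peaks of the set, with Piezo1 (1829 bp) close to Trpc1 (1781 bp). With peaks closer than 1 kb merged, Trpm7 (2509 bp) was wider than Piezo1 (2211 bp). Piezo1, whose product is a stretch-gated cation channel of many tissues (chr8:122481698-122551329), had a peak 1829 bp wide (score 111.43) that covered its start. That peak reached 462 bp upstream and 1366 bp downstream of the start, beside medians of 473 and 1019 bp over all covered protein-coding starts. Among the 14665 genes with a peak Piezo1 ranked 4874 by width and 9713 by score. Piezo1 held 2 further peaks, 153 bp wide (score 3.78) just downstream and 485 bp wide (score 4.85) at 27.4 kb into the gene.

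Piezo2 encodes the stretch-gated channel of touch and proprioception, also known from enterochromaffin cells of the gut epithelium. Its model is long (chr18:63010213-63387716, 377504 bp), and both of its peaks lay at the upper-coordinate end. The larger was the widest of the set, 2816 bp with a score of 80.93, and began 187 bp inside the model, so that it did not cover the end itself. A peak 234 bp wide (score 7.18) followed after a gap of 193 bp. Piezo2 ranked 1157 by width but only 10909 by score among the 14665 genes, the lowest score among the 6 members with a peak of at least 1500 bp. No peak lay within 50 kb beyond that end.

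Tmem63b, a member of the OSCA and TMEM63 family of stretch- and osmosensitive channels (chr17:45660172-45686343), had a peak 2720 bp wide (score 158.2), ranked 1340 by width. The start of Mrpl14, which encodes a mitochondrial ribosomal protein, lies 131 bp away on the other strand, and the peak covered both starts, reaching 1203 bp to the Mrpl14 side and 1516 bp into Tmem63b. How much of it belongs to either gene cannot be told apart. A second peak, 237 bp wide (score 4.85), lay 5.2 kb into the gene and was the only peak of Tmem63b away from the ends of other genes.

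Trpc1 and Trpm7 had the best-scored promoter peaks of the TRP members. Trpc1 encodes a subunit of receptor-operated TRPC channels (chr9:95705072-95750386). Its 1781 bp peak had the highest score of the set, 175.37, and 15.4% of all peaks in the list scored higher. Among the 14665 genes with a peak Trpc1 ranked 5340 by score and 5177 by width. The 1781 bp peak spanned 511 bp upstream to 1269 bp downstream of the start. A peak 248 bp wide (score 5.74) followed 170 bp further on. No peak lay within 50 kb beyond either end of the Trpc1 window.

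Trpm7 encodes a widely expressed channel for magnesium, calcium and zinc joined to a protein kinase (chr2:126791558-126876261). It was the member whose start lay between peaks. A peak 1672 bp wide (score 147.96) began 3 bp downstream of the start, and a second, 560 bp wide (score 58.67), ended 52 bp upstream of it, leaving a gap of 54 bp that held the start. Another, 154 bp wide (score 6.28), lay 69 bp further upstream. Of the 13307 protein-coding starts with a peak within 1 kb, 13.2% were covered by no peak and 588 (4.42%) lay in a gap of at most 200 bp between 2 peaks, as at Trpm7. Joined, the 3 Trpm7 peaks would span 2509 bp.

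**Figure D2:**
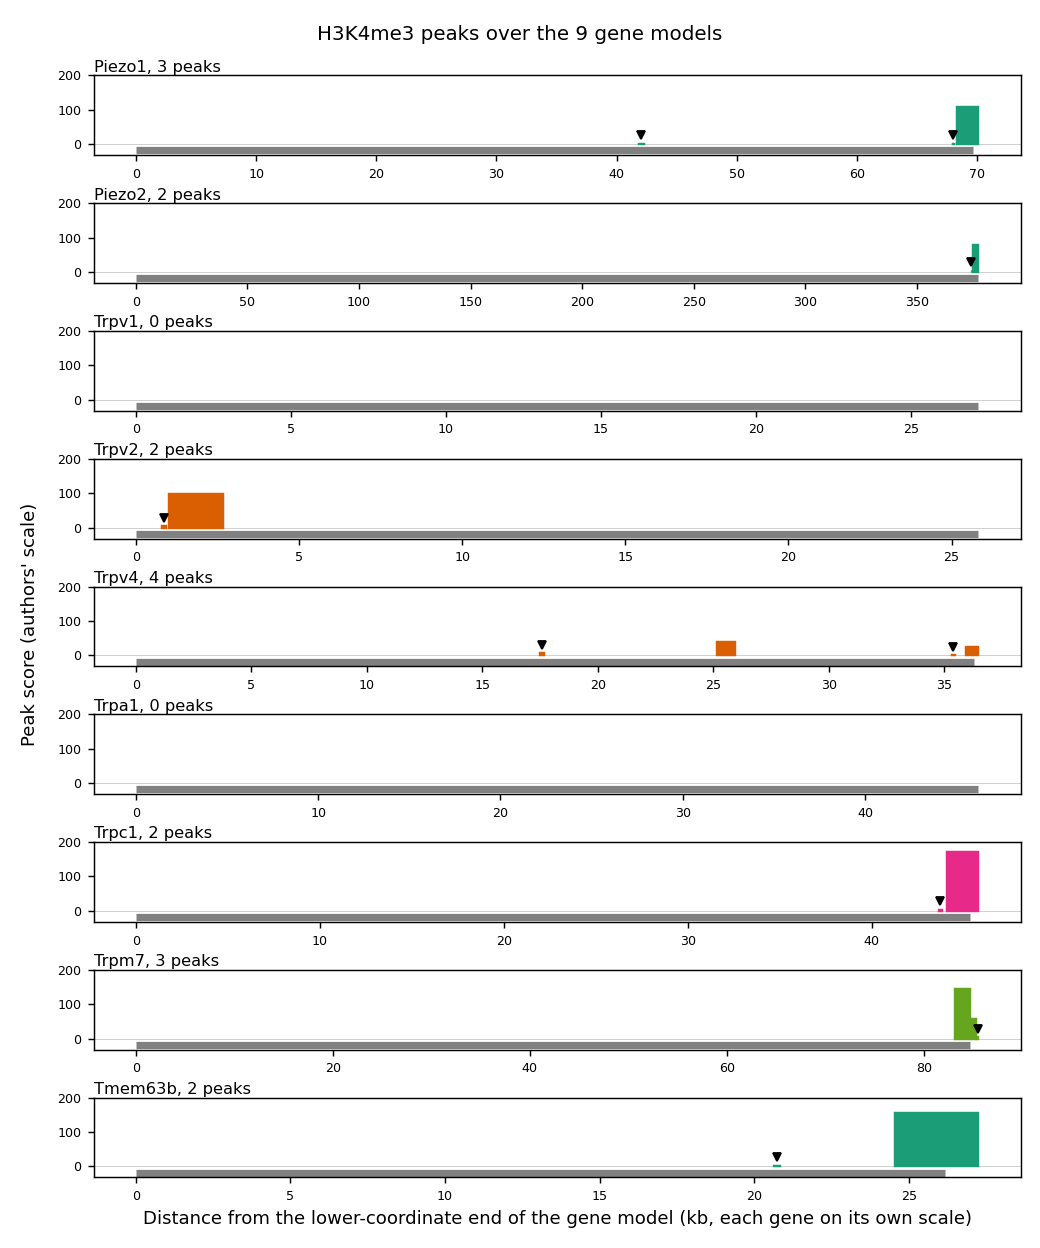
Peaks over the 9 gene models: the x axis is the distance from the lower-coordinate end in kb, with a separate scale for each gene, the y axis the peak score, the grey line the model and each coloured bar 1 peak, with a triangle over peaks under 500 bp that score below 10. The tall peaks sit at 1 end of the model in 6 genes, Trpv4 has its best-scored peak inside, and Trpv1 and Trpa1 are empty.

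The 3 TRPV members differed from each other. Trpv2, a channel opened by stretch and in rodents by strong heat (chr11:62574486-62600305), had a peak 1677 bp wide (score 101.61). The first 2 of its 3 listed starts, 27 bp apart, were covered by no peak. The wide peak began 992 bp past the first of them, and covered the downstream start, 1141 bp from the first, reaching 149 bp upstream and 1527 bp downstream of it. A peak 153 bp wide (score 6.28) lay 57 bp before the wide one. The next peak beyond the upper end of Trpv2 was 1843 bp outside the model, 2220 bp wide with a score of 216.65, and lay at ends of the noncoding 2410006H16Rik, of 3 small nucleolar RNAs and of Lrrc75a. It lay outside the window and was not counted.

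Trpv4, a channel opened by osmotic swelling and warmth (chr5:114622152-114658435), had 4 peaks and none at least 1500 bp wide. The peak over its start was 572 bp with a score of 27.85, spanning 203 bp upstream to 368 bp downstream. Its best-scored peak lay inside the gene, 10.4 to 11.2 kb downstream of the start, 817 bp wide with a score of 41.4, and no end of another annotated gene was within 1 kb of it. The other 2 had 153 bp and 218 bp. By width Trpv4 ranked 12515 of the 14665 genes with a peak, the lowest of the 7.

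Trpv1, the heat and capsaicin receptor of pain-sensing neurons (chr11:73234149-73261322), had no peak over its model. The nearest lay 29.1 kb below it, 587 bp with a score of 8.24, and 20.3 kb above it, 252 bp with a score of 34.44. The latter was inside Trpv3, the neighbouring gene of the same family. Trpa1, the irritant receptor of the same sensory neurons (chr1:14872644-14918862), had no peak over its model and none within 50 kb on either side. Without read counts, an absent peak says only that none was called at an unknown depth.

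**Figure D3:**
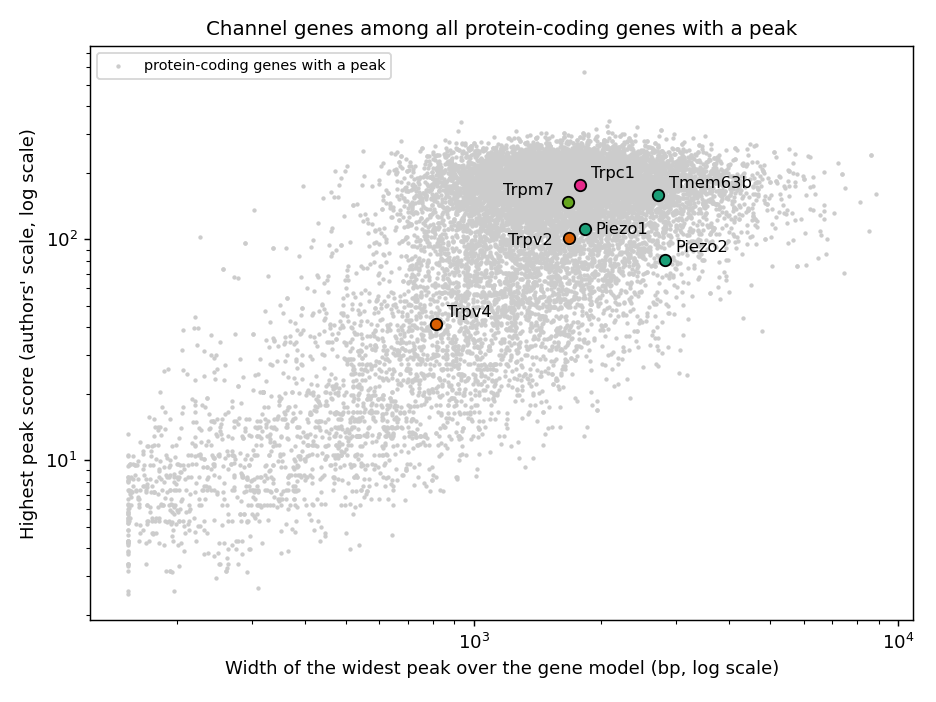
Width of the widest peak in bp (x, log scale) against the highest peak score (y, log scale) for each of the 14665 protein-coding genes with a peak (grey), with the 7 members that have one in colour. Piezo2 and Tmem63b lie to the right at 2816 and 2720 bp, 4 members lie between 1672 and 1829 bp, and Trpv4 lies apart at 817 bp and a score of 41.4.

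Each member with a CpG-rich start had a peak within 1 kb of it, and of the CpG-poor ones Trpv2 had a peak and Trpv1 none. CpG content, which took no part in choosing the genes, was measured as the observed over expected number of CpG dinucleotides in the 300 bases from 250 before to 50 after the start. Of 10137 protein-coding starts with a ratio of at least 0.6, 96.1% had a peak within 1 kb, against 32.0% of the 11126 below it. Trpm7 (1.16), Piezo1 (0.83), Trpv4 (0.83), Tmem63b (0.82) and Trpc1 (0.75) were above 0.6, and all 5 had a peak. Trpv1 (0.21) and the 3 starts of Trpv2 (0.10, 0.11 and 0.32) were below it.

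Trpv4 and Trpv2 stood on opposite sides within their own CpG classes. Among the 2285 starts with a ratio between 0.8 and 0.9 and a peak within 1 kb, the median of the widest peak was 1577 bp, and 97.0% had a wider and 95.8% a better-scored peak than the start of Trpv4. Piezo1 and Tmem63b, in the same class, were exceeded in width by 35.5% and 8.97% of these starts, and in score by 80.0% and 59.4%. At the downstream start of Trpv2, with a ratio between 0.3 and 0.4, 40.7% of the starts of that class had a peak, and of those that did 23.4% had a wider and 34.3% a better-scored one. Trpv1 fell in a class in which 24.8% of starts had a peak. These percentages place single genes in 1 library and have no error attached.

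**Figure D4:**
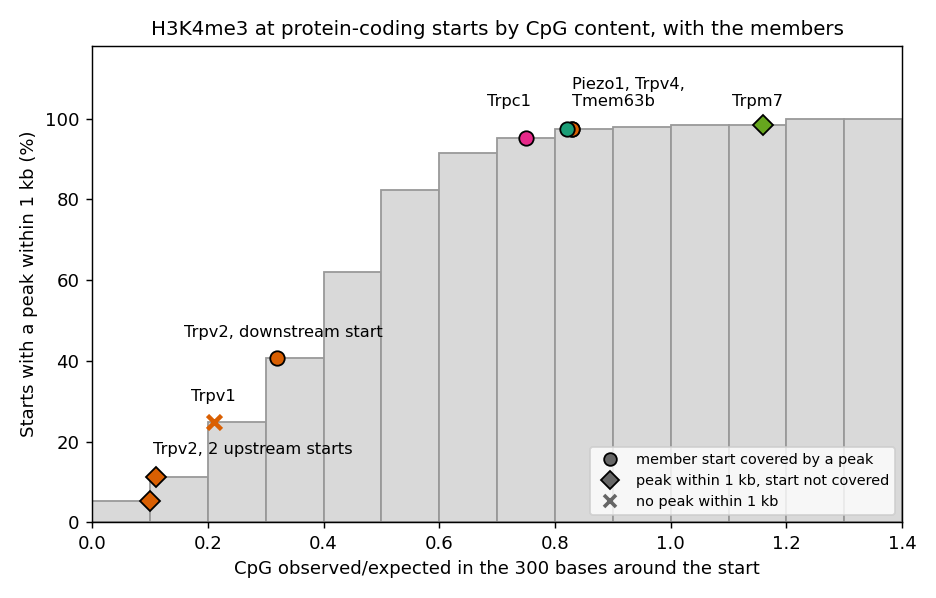
Share of protein-coding RefSeq starts with a peak within 1 kb (y, %) in classes of CpG observed over expected ratio (x, bars 0.1 wide), with each listed start of a member placed at its own ratio and at the height of its class; the 4 starts with a ratio of 1.4 or more are not drawn. The 5 members above 0.6 sit in classes of 95.1% or more, and the starts of Trpv1 and Trpv2 in classes of 40.7% or less.

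Short promoter motifs were looked for in the same 300 bases, on both strands. The GC box GGGCGG was found at Piezo1, Trpv4, Trpc1 and Tmem63b and is in 46.2% of all 21263 protein-coding windows. Trpv4, Trpc1 and Tmem63b each held 3 copies and Piezo1 held 1. Those in the printed Trpc1 sequence read as the reverse complement CCGCCC. The TATA core TATAAA was found at Piezo1, 24 bases before the start, and at the second start of Trpv2, 36 bases after it, and is in 12.6% of windows. The E box CACGTG was found at Trpm7, 25 bases before and 16 bases after the start, and is in 7.84% of windows. The CCAAT box was found at Trpv1, on the other strand, and is in 38.2% of windows. A GC box can overlap CpG dinucleotides, which it contains, and a match describes letters, not binding.

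The rest of the TRP superfamily, 22 genes, carried peaks over the model at a share close to the background. Of the 22, 15 (68.2%) had a peak over the model, beside 67.0% of all protein-coding genes. Within 1 kb of an end 11 (50%) had one, beside 61.4%, a difference that was not tested. Pkd2 and Trpm3 had none at an end but had one within 1 kb of a listed start. The 15 genes had medians of 1258 bp for the widest peak and 47.7 for the highest score. Together with the members this gives 19 of 28 TRP genes: 5 of 7 TRPC, 3 of 6 TRPV, 5 of 8 TRPM, 0 of 1 TRPA, 3 of 3 mucolipin (TRPML) and 3 of 3 polycystin (TRPP) genes. The genes without a peak were Trpv1, Trpa1, Trpc2, Trpc7, Trpv5, Trpv6, Trpm1, Trpm6 and Trpm8. Trpm8 encodes the cold and menthol receptor of sensory neurons, and Trpv5 and Trpv6 the calcium uptake channels of epithelia.

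Among the other TRP genes, Mcoln1, which encodes a lysosomal cation channel, had the widest peak, 2711 bp, but that peak lay at an end of Pnpla6, and the highest score over Mcoln1, 210.94, was that of another peak. Pkd2, which encodes polycystin-2, followed with 2269 bp and a score of 142.55, then Trpc4 (1840 bp, score 29.7) and Trpc6 (1597 bp, score 64.03), which encode channels gated through phospholipase C. The narrowest were Trpv3 (252 bp) and Trpm2 (271 bp). For Trpm5, Trpc5 and Mcoln3 each peak over the model lay within 1 kb of another gene's end. Without such peaks 12 of the 22 genes had one. The share of all protein-coding genes with a peak away from other genes' ends was not computed, here or for the lists below. Trpm3 carried 9 peaks over a model of 857614 bp, the widest 1064 bp.

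Of 16 other mechanosensitive channel genes 11 had a peak over the model (68.8%, beside 67.0% of all protein-coding genes), with medians of 1744 bp and a score of 108. A peak within 1 kb of an end was found in 8 of the 16 (50%, beside 61.4%), a difference that was not tested. Tmem63c, Tmem150c and Kcnk2 had none at an end but had one within 1 kb of a listed start. Of the 16 genes 9 had a peak away from the ends of other genes, with no computed share of all genes beside it. Lrrc8a, the core subunit of the volume-regulated anion channel, had the widest, 3142 bp with a score of 198.12, at an end of 1700084E18Rik as well. Scnn1a (2348 bp, shared with Ltbr), Asic2 (2283 bp, shared with Gm51910) and Tmem63a (2152 bp, score 177.31) followed. Tmem63a belongs to the family of Tmem63b, and Tmem63c, of the same family, had 716 bp with a score of 13.47. Kcnk4, a stretch-sensitive potassium channel gene, had the narrowest, 661 bp with a score of 22.82, shared with Catsperz. Another peak over Kcnk4 scored 34.37. Tmc1, Tmc2, Asic3, Scnn1b and Scnn1g had no peak. Tmc1 and Tmc2 encode channels of inner ear hair cells, and Scnn1b and Scnn1g subunits of the epithelial sodium channel.

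Most genes of the signalling that acts on these channels carried peaks. All 16 genes of the Gq, phospholipase C and store-operated calcium entry list had a peak, against 67.0% of all protein-coding genes, with medians of 1912 bp and a score of 170. This count was not tested. Several of these models are long, such as Plcb1 (689095 bp) and Itpr2 (393960 bp), and others short, such as Orai3 (5336 bp). In the longest of the 10 length groups 91.7% of protein-coding genes had a peak. Of the 16 genes 14 had a peak away from the ends of other genes, with no computed share of all genes beside it. The widest were Gnaq (3752 bp), the gene of the Gq alpha subunit, Plcb3 (3195 bp, shared with other gene ends), Itpr3 (3171 bp), an inositol trisphosphate receptor, and Orai3 (2410 bp, shared with Setd1a). The narrowest were Plcg2 (971 bp) and Stim2 (1471 bp, score 192.32). Of 7 auxiliary genes 6 (85.7%) had a peak, beside 67.0% of all protein-coding genes. Away from the ends of other genes 4 had one, again with no computed share of all genes. Among the 6 were Mdfi (2831 bp) and Mdfic (1552 bp), whose products bind PIEZO channels, and Stom (1306 bp). The widest peak of Pkd1 (1982 bp), the partner of Pkd2, was shared with another gene's end, and that of Tmem87a (1228 bp) with Ganc. Pirt, a regulator of Trpv1 in sensory neurons, had 380 bp with a score of 8.62, and Stoml3, which tunes PIEZO channels in mouse touch neurons, had none.

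**Figure D5:**
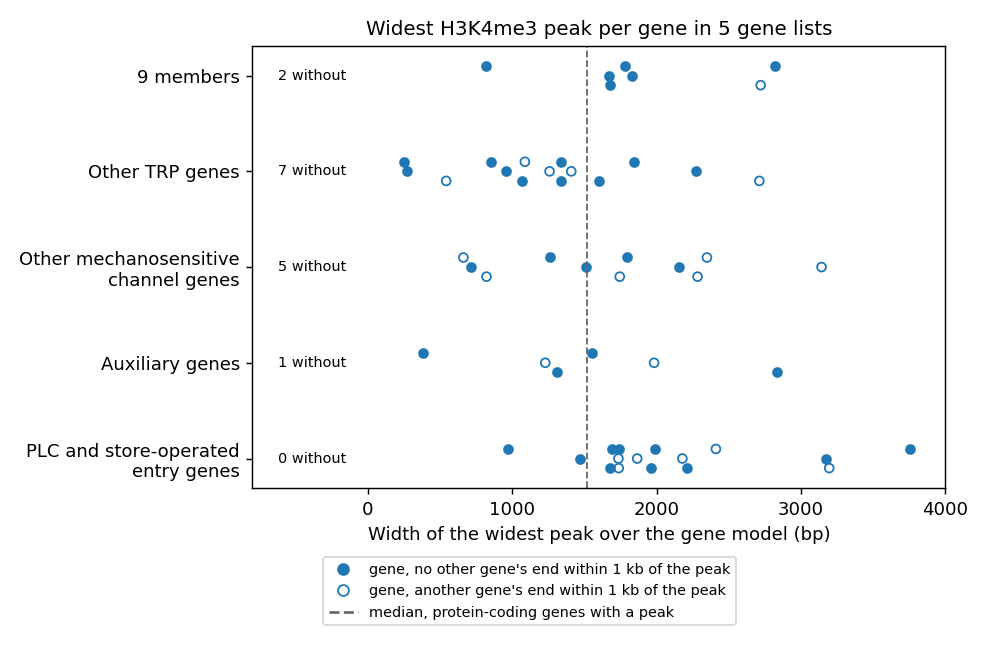
Width of the widest peak over the model in bp (x) for the genes of 5 lists (rows), 1 point a gene, open where another gene's end lies within 1 kb of that peak, with the number of genes without a peak at the left and the median of all protein-coding genes with a peak, 1515 bp, as a dashed line. The other TRP genes spread from 252 to 2711 bp, and all 16 phospholipase C and store-operated entry genes have a peak.

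The labelled cell type was checked against markers, whose counts stand beside the 67.0% of all protein-coding genes with a peak over the model. All 8 enteric neuron markers had a peak, with a median of 1794 bp. Of the 8, 6 had one away from the ends of other genes, a count for which no share of all genes was computed. Nos1 itself had the narrowest, 183 bp with a score of 13.01. This peak lay inside the model and at neither end of it but within 1 kb of an end of Gm26995. The widest, 8107 bp at Hand2, lay at an end of Hand2os1 as well, and the only peak of Uchl1 at an end of Uchl1os. Of 8 markers of extrinsic sensory neurons 5 (62.5%) had a peak, which is near the 67.0% of all genes. These were Pou4f1 (764 bp), Prdm12 (736 bp), Calca (651 bp), Scn9a (570 bp) and Isl2 (351 bp), none scored above 20.5. Those with none included Avil and Scn10a. Of 6 enterochromaffin markers 5 (83.3%) had one, from 435 to 2961 bp. The widest was at Insm1, with a score of 45.98 and no other gene's end within 1 kb, the peak of Slc18a1 (1601 bp) lay at an end of Atp6v1b2, and Tph1, which defines these cells, had none. Markers of other gut cells also had peaks: 5 of 5 for glia (912 to 6775 bp), 5 of 5 for smooth muscle (322 to 1503 bp), 5 of 5 for interstitial cells and fibroblasts (295 to 1877 bp), 3 of 5 for endothelium (232 to 1501 bp), 3 of 5 for macrophages and other leukocytes (333 to 1490 bp) and 3 of 5 for epithelium (513 to 1579 bp). The counts of 3 of 5 (60%) are near the share of all genes. The median highest score was 78.7 for enteric neuron, 17.9 for extrinsic sensory neuron and 17.9 for enterochromaffin markers with a peak. It was 31.3 for glia, 17.4 for smooth muscle, 28.2 for interstitial cells and fibroblasts and 15.1 for endothelium. For leukocytes it was 9.32 and for epithelium 32.9, beside 153 over all protein-coding genes with a peak. The widest peaks for endothelium, at Kdr, and for leukocytes, at Cd68, lay at ends of other genes. Piezo1, Trpv2, Trpv4 and Trpc1 are known from such cells too, and the part of these cells in the members' peaks was not tested.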

How the data were processed

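The authors deposited 1 peak list, from the H3K4me3 library, with a position and a score for each of 29924 peaks. MACS2 made the peaks from paired-end reads, per the file headers. The submitters' processing notes name mm10 with BWA, Picard and MACS2, but no roles or versions. No source used here states the scale or threshold of the deposited score (smallest 2.0015), and the header names no pooling. The file holds no counts, so depth is unknown and no interval was computed; at low depth weak peaks are split or lost first. The input library was not analysed here.

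Peak starts were converted to 1-based positions. Peaks were then compared, with Python 3.11.15, numpy 2.4.6 and pandas 2.3.3, with RefSeq gene models and start sites of GRCm38.p6. A gene counted as marked when a peak reached the model or the 1 kb beyond it by 1 bp or more. All 9 members and all symbols of 13 further lists were found among 21887 protein-coding genes on 21 chromosomes. Some models, such as Csprs and LOC100041708, are listed out of order, at positions below those of the first gene of chromosome 1. They held no peak and count as genes without one in the background shares. Sequences were copied from the RefSeq promoter table, which gave 7 members. Only the overlap with a gene model and the peak width were tested on simulated peaks, each placed in the middle of an isolated model.

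The members and lists were chosen with earlier results of these data known. Of other lists, the genes named are those against their list's majority, up to 4 with the widest and 2 with the narrowest peaks; Mcoln3, Trpm5, Trpc5, Trpm3 and the markers named were chosen after their values were seen. The result of 1 single marker gene is not reported here.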

Additional observations from a re-analysis of the deposited data

How the results depend on the processing

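Of 33 alternative settings of the 5 counts, 26 stayed within 1.5 times the reported count. The sizes of the lists keep any rise within that limit. Settings that widen the window therefore could not fall outside it, and the limit could be passed only by a loss of genes. Among the 25% of peaks with the highest scores (141 or more) 3 of the 9 members kept a peak over the model (Trpc1, Trpm7 and Tmem63b). So did 5 of the 22 other TRP genes and 4 of the 16 other mechanosensitive channel genes, beside 37.3% of all protein-coding genes. At an end 3 members kept one, and at a start 3 of 7. Among the 50% with the highest scores 7 of the 9 members had a peak over the model. So did 8 of the 22 other TRP genes and 8 of the 16 other mechanosensitive channel genes, beside 57.8% of all protein-coding genes. At an end 6 members had one and at a start 5 of 7, in each case without Trpv4. For these score limits the shares of all protein-coding genes at an end or a start were not computed. The differences between lists were not tested. A peak that covers the end of the model itself was found in 4 members, without Piezo2, Trpm7 and Trpv2. The share of all protein-coding genes was not computed for this setting. With peaks closer than 1 kb merged the widest peak of a member grew by at most 1.5 times, at Trpm7, from 1672 to 2509 bp. Leaving out peaks near other genes' ends was added after seeing the data and kept all 7 members, Tmem63b only by its narrow peak. No share of all protein-coding genes was computed for it. The unknown depth and the lack of a second library limit all of these values. No paired analysis was possible because the series holds 1 library of each kind and 1 peak list.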
